A study of Homo sapiens and Mus musculus with 4 samples.

Results

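TALL104, a human T-cell leukaemia line of the CD8 type, was compared with EL4, a mouse T-cell lymphoma line that the study describes as CD4 T cells, by bulk RNA-seq. The table held 60736 genes, 32738 human and 27998 mouse. The comparison was restricted to the 15489 protein-coding genes whose symbol, written in capitals, was the same and unique in both species, with the mitochondrially encoded genes left out. For each of these genes the human row was read in the TALL104 library and the mouse row in the EL4 library. There was 1 library per line, so no spread between cultures could be measured, no test was made and every difference below is a description of 2 libraries. Both lines came from a cell repository and were grown apart: TALL104 in IMDM with serum and interleukin-2, the cytokine it needs for growth, and EL4 in RPMI with serum and 2-mercaptoethanol. The study describes TALL104 cells as smaller than the other lines and harder to culture, with limited viability and slow growth. The part of cell size, viability and growth rate in the ratios was not tested. The other 2 lines of the series, Jurkat (human, CD4 T cells) and IVA12 (mouse, B cells), were rescaled over the same genes and are given as side values.

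Because the lines differ in species, the gene models, the gene lengths and the culture medium cannot be told apart from the line. A shared symbol is also no proof that 2 genes have the same role. In bulk libraries, fewer cells of a kind and less RNA per cell cannot be told apart.

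A killer lymphocyte stores perforin and granzymes in secretory lysosomes. When its receptors engage a target, the granules move along microtubules, dock and fuse at the contact, perforin opens the target membrane and granzymes enter and cleave proteins that start cell death. Killer cells also carry natural killer (NK) type receptors and make cytokines and death ligands, under transcription factors such as T-bet and Eomes. A cell that divides makes its replication proteins and nucleotides around S phase and its mitotic regulators before and in M phase. E2F factors drive much of the first set, and the DREAM and MuvB complexes, which bind the CHR element, control much of the second.

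Levels are FPKM (fragments per kilobase of gene and per 1000000 reads) rescaled so that the 15489 genes sum to 1000000 in each line. The factor was 5.73 in TALL104 and 3.60 in EL4, so the rescaling moves ratios toward TALL104. Whether levels are comparable between a human and a mouse library was not tested. Ratios are log2 of (rescaled FPKM + 1) in TALL104 over that in EL4, which draws ratios of low genes toward 0. The reads behind each value were recovered from the FPKM, with 28345951 reads in all in TALL104 and 32149319 in EL4. The intervals are 95% intervals, and the ± values beside log2 ratios are standard errors, both for the counting of reads alone. Where no read was found, the fold is given against 3 reads in that library and is not a 95% limit. A ± value then leaves that library out.

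TALL104 was more than 2-fold higher than EL4 at 4206 genes, 27.2% of those compared, and EL4 was higher at 2419, or 15.6%. The split of 63.5% of calls toward TALL104 rested on the scaling. It was 54.0% after scaling by the median ratio of the genes, which removed a shift of 0.36 on the log2 scale toward TALL104, and 43.9% on the FPKM as deposited, with 2345 genes higher in TALL104 and 2999 in EL4. Values below are relative to the sum over the shared genes.

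The labels were checked against markers. Of 21 shared T cell markers, 10 were higher in TALL104 and 3 in EL4, against 27.2% and 15.6% of all shared genes. The list summed to 8317 in TALL104, 5634 in EL4, 6911 in Jurkat and 82.2 in IVA12. CD3E, of the T cell receptor complex, had 1333 in TALL104, 229 in EL4, 849 in Jurkat and 0.0978 in IVA12. CD8A had 162, 0, 3.06 and 0. CD4 had 0.176, 0.751, 5.03 and 0. TALL104 thus carried CD3E and CD8A, whereas EL4 carried CD3E but was at 0 for CD8A and near 0 for CD4, the marker that its description names, from 27 reads. Human CD8B had 0.114 FPKM in TALL104, and mouse Cd8b1 was listed at 0 in EL4. CD2, an adhesion molecule, had 89.5 and 64.2. CD28, the costimulatory receptor, had 5.66 in TALL104 and 216 in EL4, and CD7 had 546 and 0. THY1, a general T cell marker in mice but not in humans, had 0.102 in TALL104 and 2110.4 in EL4, with 33.3 in Jurkat.

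**Figure D1:**
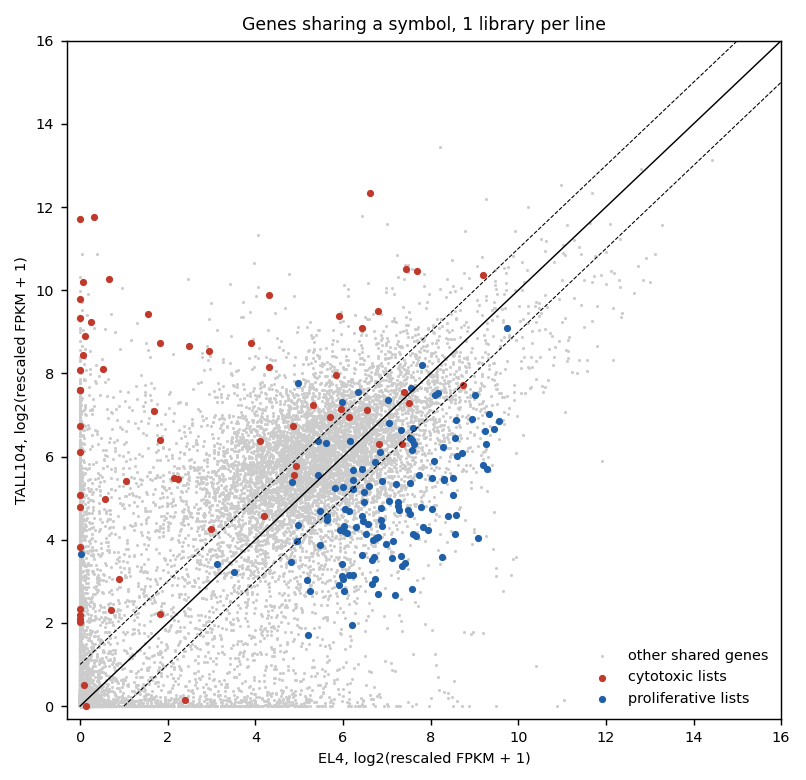
Each point is a gene with a shared symbol, with log2(rescaled FPKM + 1) in EL4 on the x axis and in TALL104 on the y axis, and the dashed lines mark 2-fold. Members of the cytotoxic lists (red) lie mostly above the upper line, 51 of 65, many of them at 0 or close to it in EL4, and members of the proliferative lists (blue) lie mostly below the lower line, 94 of 125.

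The cytotoxic and the proliferative genes went in opposite directions. Of the 65 shared members of 5 cytotoxic lists, 51 were more than 2-fold higher in TALL104 and 3 in EL4, with a median log2 ratio of 3.23. Of the 125 shared members of 4 proliferative lists, 94 were more than 2-fold higher in EL4 and 4 in TALL104, with a median of -2.17. Over all 15489 genes, 27.2% were more than 2-fold higher in TALL104 and 15.6% in EL4, with a median of 0.05. Each list count below is to be set beside these shares. The cytotoxic members summed to 30555 in TALL104, 2949 in EL4, 2925 in Jurkat and 1462 in IVA12. The proliferative members summed to 6394 in TALL104, 22949 in EL4, 32232 in Jurkat and 23290 in IVA12. In both sums it was TALL104 that stood apart, and the other 3 lines lay nearer to each other than to it.

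**Figure D2:**
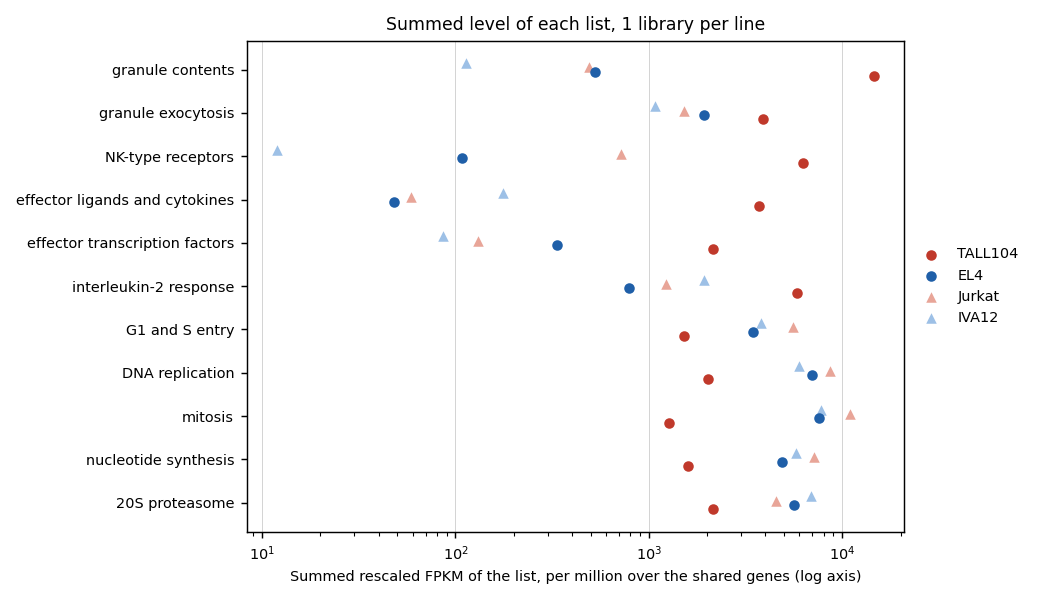
Summed rescaled FPKM of each gene list on a log axis, with 1 point per line, circles for TALL104 and EL4 and triangles for Jurkat and IVA12. TALL104 is highest in the 5 cytotoxic lists and the interleukin-2 response list and lowest in the 4 proliferative lists and the 20S proteasome list, where EL4, Jurkat and IVA12 lie close together.

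Granule contents showed the largest median of all lists, 6.92. Of 11 shared members, 9 were higher in TALL104 and none in EL4, and together they held 1.46% of the TALL104 sum and 0.05% of the EL4 sum. GZMA, the granzyme of tryptase type, had 5161 in TALL104, 97.5 in EL4, 103 in Jurkat and 0.960 in IVA12. NKG7, a protein of the granule membrane, had 3463 in TALL104 (interval 3410 to 3517), 0.245 in EL4, 59.3 in Jurkat and 0 in IVA12. PRF1, which encodes perforin, had 1169.6 in TALL104, 0.0546 in EL4, 17.1 in Jurkat and 2.39 in IVA12. GZMA was thus high in TALL104 and at about the same level in EL4 and Jurkat, while NKG7 and PRF1 were near 0 in EL4, from 2 reads and 1 read. The fold was 52.9 for GZMA (47.8 to 58.7), 14120.3 for NKG7 (3908 to 116606) and 21435 for PRF1 (3847 to 846685), the last 2 with wide intervals because of the few reads in EL4. In hg19, GZMA (ENSG00000145649) lies on chromosome 5 from 54398474 to 54406080, NKG7 (ENSG00000105374) on chromosome 19 from 51874860 to 51875955 and PRF1 (ENSG00000180644) on chromosome 10 from 72357104 to 72362515, where it overlaps PALD1 on the other strand. In mm10 the genes are ENSMUSG00000023132 on chromosome 13, ENSMUSG00000004612 on chromosome 7 and ENSMUSG00000037202 on chromosome 10.

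The promoters of PRF1 and GZMA are shown because RUNX factors bind the letters TGTGGT and RUNX3, a factor of CD8 T cells, is among the genes compared below. They are the 120 bases before the RefSeq start site in GRCh38.p14, read along the gene, at chr10:70602742-70602861 on the minus strand for PRF1 and chr5:55102526-55102645 on the plus strand for GZMA. Capitals mark TGTGGT, here in both as its reverse complement. Both are among the granule promoters that hold these letters, so the matches shown are not a result.
PRF1: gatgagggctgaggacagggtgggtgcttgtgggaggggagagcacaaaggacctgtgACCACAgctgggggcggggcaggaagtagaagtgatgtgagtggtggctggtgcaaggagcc
GZMA: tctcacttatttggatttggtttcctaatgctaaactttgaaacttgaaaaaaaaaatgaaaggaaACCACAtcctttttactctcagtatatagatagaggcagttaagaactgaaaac

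TGTGGT, on either strand, was found in 3 of the 6 promoters of granule genes that had a sequence in the table used, against 5.44% of 22114 promoters of the same length. It was in 3.96% of the promoters of genes higher in TALL104 and in 4.10% of those higher in EL4. A match of letters is a description of the window and not a binding site.

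The other granule genes fell into 3 kinds. CTSC, the dipeptidyl peptidase that activates granzymes, was listed at 0 in EL4 and had 268 in TALL104. The fold over EL4 was 4625 against 3 reads, and the other lines had 61.9 in Jurkat and 19.8 in IVA12. GZMK had 476 in TALL104 and 0.0807 in EL4 (1 read), GZMM 424 and 2.51, and CTSW, a cathepsin of killer cells, 685 and 1.91. SRGN, the proteoglycan that packs granzymes, and CST7, a cystatin that inhibits cathepsins, were expressed in both lines but higher in TALL104. SRGN had 1404 in TALL104 and 204 in EL4, with 76.7 in Jurkat and 84.1 in IVA12. CST7 had 1467 and 173, with 55.2 and 0.142. The remaining 2 members did not reach 2-fold. GZMB, the granzyme that activates caspases, had 54.1 in TALL104 (48.8 to 59.8) and 29.4 in EL4 (25.3 to 33.9), with 1.15 in Jurkat and 0 in IVA12. SERPINB9, its inhibitor, had 22.9 and 17.4, with 6.66 and 0.201. In TALL104 the level of GZMA was therefore far above that of GZMB, per length.

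Some granule genes have no partner of the same symbol, and their FPKM as deposited are given here. In TALL104 GNLY, which encodes granulysin, had 4.97 FPKM and GZMH had 4.64. In EL4 the mouse genes Gzmc, Gzmf, Gzmg and Gzmn were listed at 0, and Gzmd and Gzme had 0.0323 and 0.0337 FPKM, 1 read each.

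**Figure D3:**
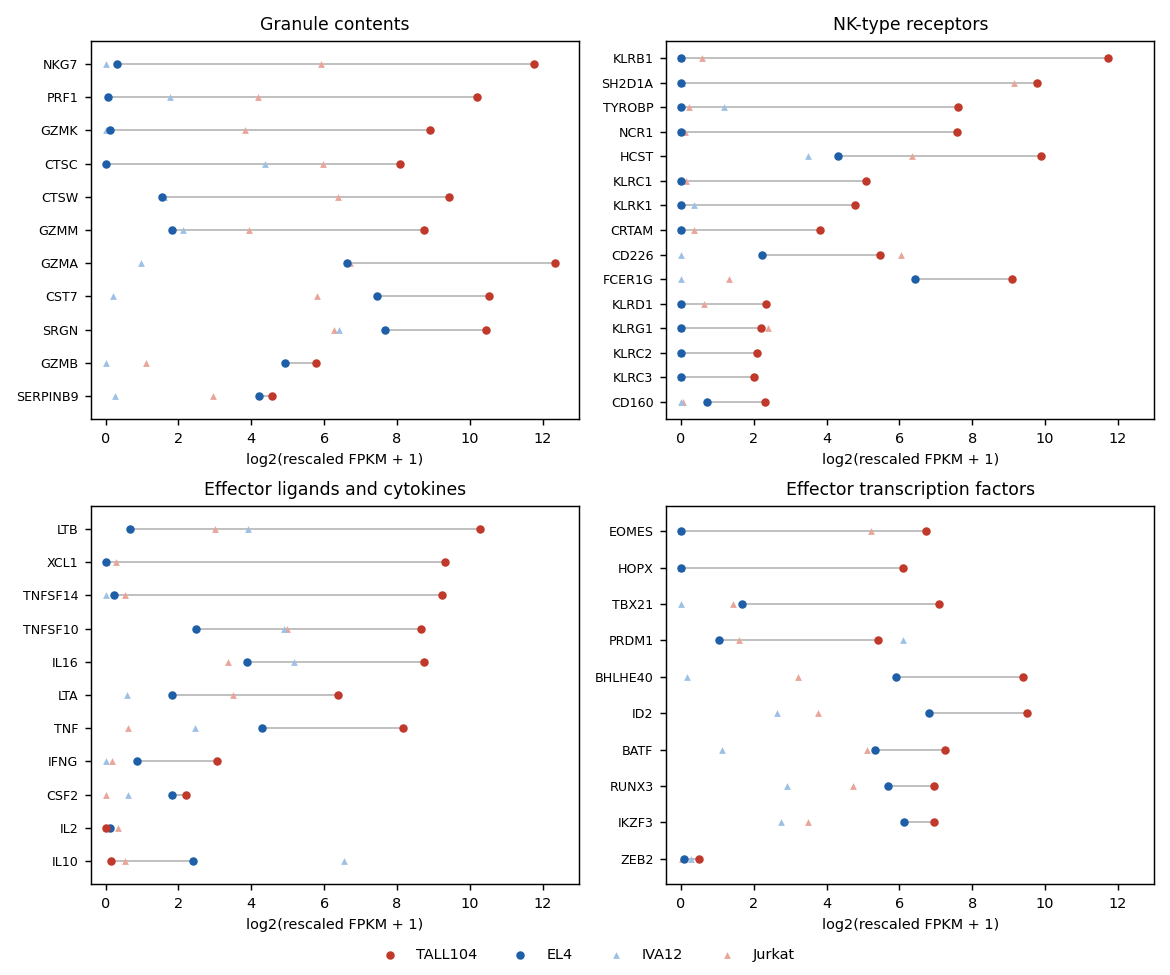
Log2(rescaled FPKM + 1) of each member of 4 cytotoxic lists, ordered within a list by the ratio, with lines joining TALL104 (red circles) and EL4 (blue circles) and triangles for Jurkat and IVA12. Of the 47 genes, 40 are more than 2-fold higher in TALL104, and IL10 is the member that lies more than 2-fold the other way.

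Granule exocytosis, which brings the granules to the membrane, had a smaller difference, with a median of 1.24. Of 18 shared members, 11 were higher in TALL104 and 2 in EL4. On the FPKM as deposited the median was 0.52, with 8 members higher in TALL104 and 3 in EL4, against 15.1% and 19.4% of all shared genes. It was 0.58 over genes whose human and mouse lengths were within 1.5 times. RAB27A, the GTPase that docks granules, had 185 in TALL104, 168 in EL4, 35.2 in Jurkat and 34.4 in IVA12. UNC13D, which primes them for fusion, had 248, 56.3, 80.1 and 71.1. VAMP8, a vesicle SNARE, had 347, 0.0485, 0.741 and 32.8, with 1 read in EL4. RAB27A was thus similar in the 2 lines and higher there than in the others, while VAMP8 was near 0 in EL4 and Jurkat. CD63, a tetraspanin of lysosome and granule membranes, had 274 in TALL104 and 0.435 in EL4. Among the synaptotagmin-like RAB27A effectors, SYTL3 had 373 and 6.71, SYTL2 30.5 and 0.490, and SYTL1 82.4 and 16.2. The 2 members higher in EL4 are genes of lysosomes in most cells. LAMP1, a lysosomal membrane protein, had 210 in TALL104 and 425 in EL4, with 69.9 in Jurkat and 373 in IVA12. AP3B1, a subunit of the AP-3 sorting adaptor, had 77.4 and 162. Both stood just past the threshold, LAMP1 at a log2 ratio of -1.01 ± 0.024 and AP3B1 at -1.05 ± 0.033, and neither was past it as reads per 1000000 without division by length, at -0.25 and -0.77. LAMP2 changed sign under that setting, from 1.19 to -0.14.

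NK-type receptors and their adaptors were higher in TALL104 at all 15 shared members, with a median of 3.81, and 11 of the 15 were listed at 0 in EL4. Over all shared genes, 4404 of 15489 were at 0 in EL4. KLRB1 (ENSG00000111796, chromosome 12 from 9747147 to 9760512 in hg19), which encodes CD161, had 3376 in TALL104, 0 in EL4, 0.507 in Jurkat and 0 in IVA12, and had the largest ratio of all 15489 genes, 11.72 ± 0.0093, at least 14097-fold. Mice have several genes of the Klrb1 family, and only the mouse gene named Klrb1 entered this ratio. NCR1, which encodes NKp46, had 192, 0, 0.0775 and 0. SH2D1A, the SAP adaptor of SLAM-family receptors, had 882, 0, 565 and 0.0255. KLRB1 and NCR1 were thus at or near 0 in the 3 other lines, whereas SH2D1A was at 0 in EL4 but high in both human lines. SH2D1A overlaps STAG2 and TEX13D in the human annotation on the same strand.

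The signalling adaptors of these receptors differed in the same direction. TYROBP, which encodes DAP12, had 194 in TALL104 and 0 in EL4, HCST, which encodes DAP10, 938 and 18.9, and FCER1G, which encodes the FcR gamma chain, 541 and 84.9. Unlike KLRB1, the other lectin receptors were lower than these adaptors in TALL104. KLRK1, which encodes NKG2D, had 26.5 (23.0 to 30.5), KLRC1, which encodes NKG2A, had 32.7, and KLRD1, which encodes CD94, the partner of NKG2A, had 4.08. KLRC2, KLRC3 and KLRG1 had 3.05 to 3.58. KLRC1, KLRC2 and KLRC3 are related in sequence, and KLRC1 and KLRC2 overlap on the same strand in the human annotation. How reads were split between the KLRC genes is uncertain. These low values passed 2-fold against 0 in EL4. On the FPKM as deposited 10 of the 15 receptors were past 2-fold toward TALL104, against 15.1% of all shared genes. Of the unshared receptors in TALL104, NCR3 had 42.4 FPKM, CD244 14.8, KLRF1 0.112 and FCGR3A 0.0237.

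Effector ligands and cytokines were higher in TALL104 at 8 of 11 shared members, with a median of 4.58. LTB, lymphotoxin beta, had 1242 in TALL104, 0.591 in EL4, 6.98 in Jurkat and 13.9 in IVA12. XCL1, a chemokine of activated CD8 T cells and NK cells, had 639.7, 0, 0.215 and 0. TNFSF14, which encodes LIGHT, had 605, 0.181, 0.456 and 0. All 3 were high in TALL104 and below 14 in every other line. TNF itself had 283 in TALL104 and 18.7 in EL4, and TNFSF10, which encodes TRAIL, had 405 and 4.55. IFNG, the interferon of killer cells, was low in TALL104 at 7.30 (5.30 to 9.80), with 0.836 in EL4 from 9 reads. IL10 went the other way, with 0.102 in TALL104 (1 read), 4.28 in EL4 and 92.0 in IVA12. CSF2 had 3.61 and 2.52, and IL2 had 0 and 0.0980 (0 reads and 1 read). XCL1 shares sequence with XCL2, which had 153 FPKM in TALL104. Of the other unshared genes, IL32 had 449 FPKM and FASLG, the Fas ligand, 35.6 FPKM in TALL104, while mouse Fasl and Ccl4 were listed at 0 in EL4 and Ccl3 and Ccl5 had 0.487 and 0.0648 FPKM.

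Among the effector transcription factors, 8 of 10 shared members were higher in TALL104 and none in EL4, with a median of 3.08. EOMES, the Eomes gene, had 105 in TALL104, 0 in EL4, 36.6 in Jurkat and 0 in IVA12. TBX21, which encodes T-bet, had 136, 2.21, 1.68 and 0. HOPX, a homeodomain protein found in effector cells, had 67.8 and was listed at 0 in the other 3 lines. RUNX3 had 123, 50.9, 25.7 and 6.60. EOMES and HOPX were thus listed at 0 in EL4, whereas RUNX3 was expressed in both lines with a 2.42-fold difference (2.29 to 2.56). PRDM1, which encodes Blimp-1, had 41.9 in TALL104 and 1.08 in EL4 but was highest in IVA12 at 67.0. ID2, an inhibitor of E proteins, had 723 and 111, and BHLHE40 had 668 and 59.2. IKZF3, at 122 and 69.5, and ZEB2, at 0.417 and 0.0618, were below the 2-fold call.

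Transcription factors of naive and memory T cells did not go one way. Of 8 members, 4 were higher in TALL104 and 1 in EL4, against 27.2% and 15.6% of all shared genes. The median of 0.67 fell to -0.09 as reads per 1000000 without division by length. SATB1, a chromatin organiser of thymocytes, had 116 in TALL104 and 0 in EL4. BACH2, a repressor of effector genes, had 36.3 and 0.0113. TCF7, which encodes TCF-1, had 134 in TALL104, 2150.0 in EL4, 197 in Jurkat and 4.07 in IVA12. TCF7 was therefore highest in EL4 by a wide margin, while SATB1 and BACH2 were at or near 0 there.

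Genes of the response to interleukin-2, which was in the TALL104 medium, were higher in TALL104 at 16 of 18 members and in EL4 at 1, with a median of 2.60 that was 1.4998 on the FPKM as deposited. IL2RB, the receptor chain that signals, had 593 in TALL104, 1.45 in EL4, 4.65 in Jurkat and 0.303 in IVA12. CISH, a feedback inhibitor induced by STAT5, had 202, 0.157, 3.44 and 0.481. IL2RA, the chain that raises affinity, had 129, 2.81, 0.416 and 0. In each of the 3 the TALL104 level was far above that of every other line. Compared with all 3 other lines, TALL104 was more than 2-fold higher at 9 of the 18 members, and at 44 of the 65 cytotoxic members, against 9.99% of all shared genes. This reading of the 4 lines together was chosen after the values were seen. By list, it held for 9 of 11 granule contents, 8 of 18 exocytosis genes, 12 of 15 receptors, 8 of 11 ligands and 7 of 10 transcription factors.

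**Figure D4:**
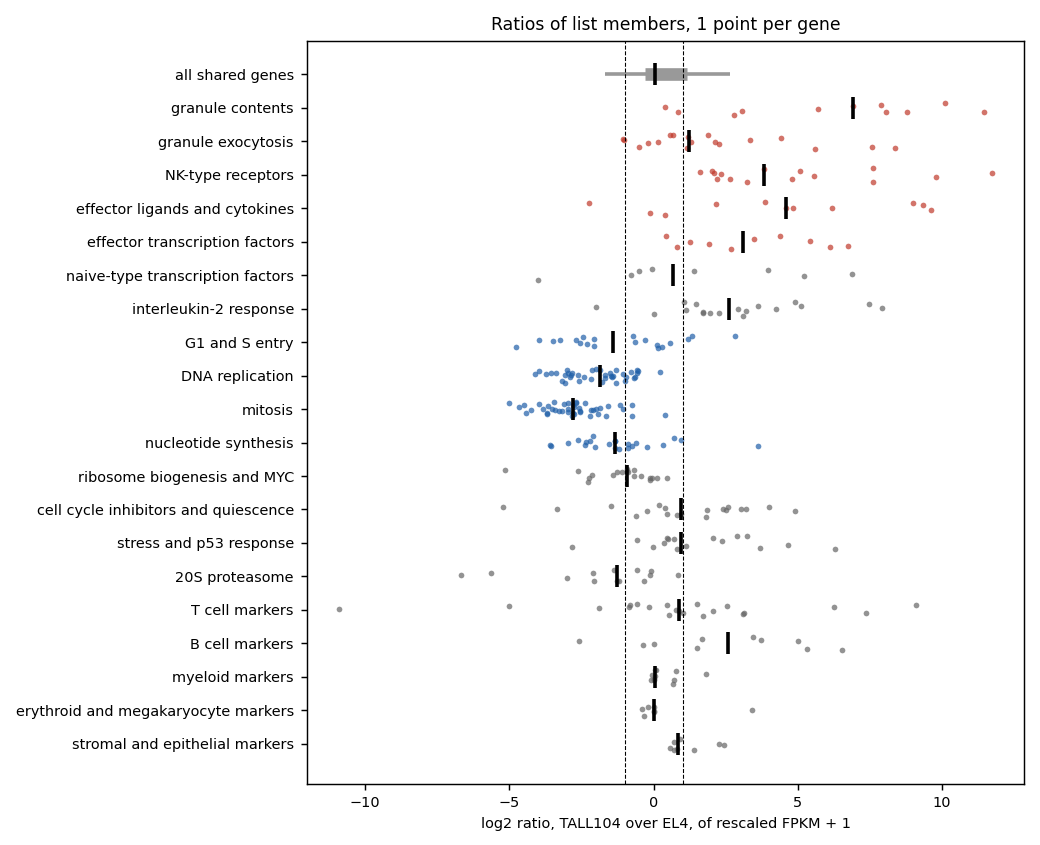
Log2 ratio of rescaled FPKM + 1, TALL104 over EL4, for each member of each list, 1 point per gene, with black bars at the medians and dashed lines at 2-fold. For all shared genes the thick bar spans the quartiles and the thin bar the middle 80%. The cytotoxic lists (red) lie to the right, with medians from 1.24 to 6.92, and the proliferative lists (blue) to the left, with medians from -2.80 to -1.33.

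Mitosis was the list with the largest difference in the other direction. Of its 43 members, all of them shared, 40 were more than 2-fold higher in EL4 and none in TALL104, with a median of -2.80, and the list summed to 1265 in TALL104, 7621 in EL4, 10940.2 in Jurkat and 7733 in IVA12. CDC20, the activator of the anaphase-promoting complex, had 15.6 in TALL104, 538 in EL4, 487 in Jurkat and 338 in IVA12. PLK1, the polo-like kinase, had 10.9, 305, 162 and 361. CCNB2, a mitotic cyclin, had 16.5, 376, 398 and 299. In hg19 CDC20 (ENSG00000117399) lies on chromosome 1 from 43824652 to 43828874 and PLK1 (ENSG00000166851) on chromosome 16 from 23688977 to 23701688, and in mm10 they are ENSMUSG00000006398 on chromosome 4 and ENSMUSG00000030867 on chromosome 7. Each of the 3 genes was above 150 in the 3 other lines and below 20 in TALL104. The fold of EL4 over TALL104 was 34.5 for CDC20 (29.5 to 40.7), 27.9 for PLK1 (24.6 to 31.7) and 22.8 for CCNB2 (19.4 to 27.0).

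The promoters of CDC20, PLK1, CCNB2 and KIF23 are shown because the mitotic genes moved together and the CHR element, TTTGAA, near a CCAAT box is the known arrangement of such promoters. They are the 120 bases before the RefSeq start site in GRCh38.p14, all on the plus strand, at chr1:43358861-43358980, chr16:23678769-23678888, chr15:59105026-59105145 and chr15:69414229-69414348. Capitals mark TTTGAA and CCAAT on either strand. Each of these promoters is among the mitosis promoters that hold both, so the matches shown are not a result.
CDC20: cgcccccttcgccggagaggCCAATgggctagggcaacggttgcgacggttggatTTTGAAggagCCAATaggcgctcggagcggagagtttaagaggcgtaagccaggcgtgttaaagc
PLK1: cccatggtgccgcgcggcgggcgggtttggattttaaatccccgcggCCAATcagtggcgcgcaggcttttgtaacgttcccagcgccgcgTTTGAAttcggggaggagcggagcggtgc
CCNB2: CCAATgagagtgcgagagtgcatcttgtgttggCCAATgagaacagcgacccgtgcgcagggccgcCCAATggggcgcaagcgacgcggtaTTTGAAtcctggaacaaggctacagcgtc
KIF23: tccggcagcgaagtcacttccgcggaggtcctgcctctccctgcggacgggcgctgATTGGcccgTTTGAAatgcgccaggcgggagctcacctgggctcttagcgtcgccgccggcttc

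Both motifs were present in 13 of the 31 mitosis promoters that had a sequence, against 1.36% of all 22114 promoters. TTTGAA was in 51.6% of the mitosis promoters, in none of the 28 promoters of the DNA replication list and in 6.06% of all promoters. It was in 5.23% of the promoters of all genes higher in EL4, below the share of all promoters, and in 2.54% of those of genes higher in TALL104. CCAAT was in 71.0%, 46.4% and 21.4%. The E2F letters GCGGGAA, in contrast, were in 32.1% of the replication promoters, 3.23% of the mitosis promoters and 2.76% of all promoters. All of these promoters are human, and no mouse promoter was used here.

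The mitotic genes covered each step of division. Of the kinases and their partners, CDK1 had 22.7 in TALL104 and 337 in EL4, and CDC25C, its activating phosphatase, had 2.86 and 72.2. At the kinetochore, SPC24 had 5.41 and 144. BIRC5, which encodes survivin of the chromosomal passenger complex, had 7.31 and 104. TOP2A, the topoisomerase that decatenates chromosomes, had 99.7 and 698, and MKI67, the Ki-67 gene used to score dividing cells, had 63.6 in TALL104, 391 in EL4, 309 in Jurkat and 573 in IVA12. All of them were read at least 43 times in TALL104, so the transcripts were present there at a lower level. The 3 members short of 2-fold were PRC1 at 37.4 and 63.0, CENPF at 25.0 and 43.2, and CDC25B at 294 and 223. CDC25B, a phosphatase that acts at the entry to mitosis, was the member where TALL104 was the higher line.

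**Figure D5:**
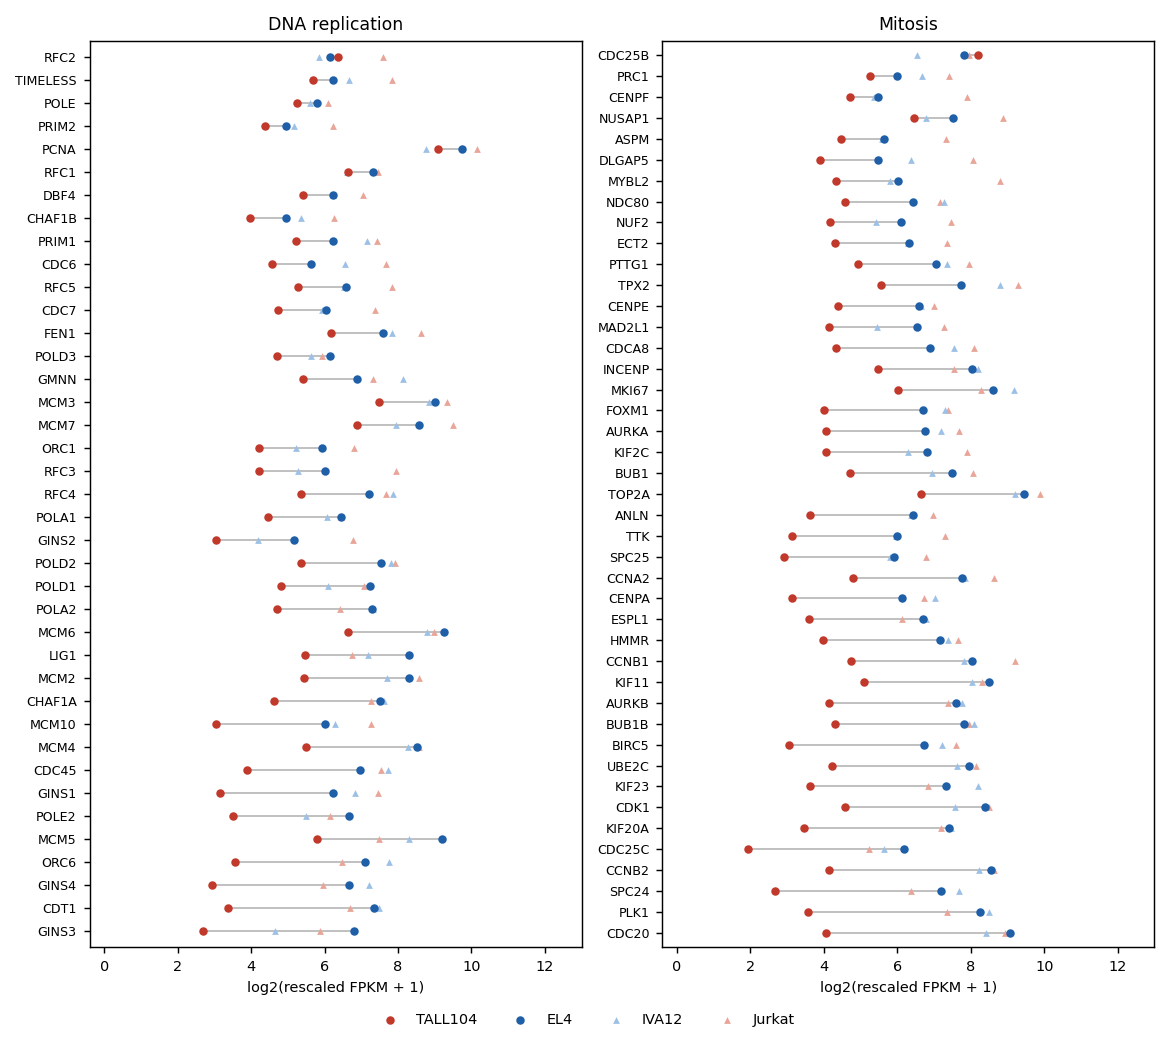
Log2(rescaled FPKM + 1) of each member of the DNA replication and mitosis lists, ordered by the ratio, with lines joining TALL104 (red circles) and EL4 (blue circles) and triangles for Jurkat and IVA12. TALL104 is the lowest of the 4 lines at 36 of 39 replication and 42 of 43 mitosis members. Over all shared genes it is lowest at 5665 of 15489, ties included.

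DNA replication had 39 shared members, of which 30 were higher in EL4 and none in TALL104, with a median of -1.87. MCM5, a subunit of the replicative helicase, had 54.3 in TALL104, 584 in EL4, 178 in Jurkat and 317 in IVA12. CDT1, which loads the helicase, had 9.26, 162, 102 and 177. GINS3, part of the active helicase, had 5.46, 110.0, 57.7 and 24.2. TALL104 was the lowest line for each of them, and EL4 or IVA12 the highest. The 9 other members did not reach 2-fold. Among them, PCNA, the sliding clamp, had 542 in TALL104, 852 in EL4, 1137 in Jurkat and 433 in IVA12. RFC2, a clamp loader subunit, had 82.2 and 70.0 and was the member where TALL104 was the higher line. PRIM1, a primase subunit, had 36.2 and 73.4 and a log2 ratio of -0.9997 that fell just short of the call.

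Genes of G1 and S entry were mixed, with 10 of 20 higher in EL4, 3 in TALL104 and a median of -1.40. Over all shared genes, 15.6% were higher in EL4 and 27.2% in TALL104. CCNE1, the cyclin that drives entry into S phase, had 6.06 in TALL104, 191 in EL4, 29.6 in Jurkat and 138 in IVA12. CKS1B, a CDK subunit, had 23.3, 379, 215 and 505. E2F3, an E2F activator, had 219, 30.2, 145 and 49.6. CCNE1 was thus highest in the mouse lines, and E2F3 in the human lines. RB1, the retinoblastoma gene, had 185 and 80.5, and CCND3, the D cyclin of lymphocytes, 159 and 62.1, both also higher in TALL104. CDK4 had 73.8 and 311, while its relative CDK6 had 182 and 286, CCND2 had 201 and 186, and E2F1 had 46.4 and 42.2. The other 10 members, CCND2, CCND3, E2F1, E2F3 and E2F7 among them, did not differ by more than 2-fold toward EL4.

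Nucleotide synthesis was higher in EL4 at 14 of 23 shared members and in TALL104 at 1, with a median of -1.33. The 20S proteasome list, described below as genes that every cell uses, was close, with 8 of 13 and a median of -1.28. G1 and S entry had -1.40. Over members with human and mouse lengths within 1.5 times, the medians were -1.33 for nucleotide synthesis, -1.35 for G1 and S entry and -0.32 for the proteasome. RRM2, the S-phase subunit of ribonucleotide reductase, had 50.9 in TALL104, 626 in EL4, 593 in Jurkat and 396 in IVA12. PAICS, of purine synthesis, had 66.8, 421, 988 and 406. TK1, the cytosolic thymidine kinase of the salvage route, had 11.5, 0.0216, 64.7 and 50.3. RRM2 and PAICS were lowest in TALL104, but TK1 was close to 0 in EL4 alone, with 1 read there and a fold of 535 (93.9 to 21318). TYMS, which makes thymidylate by the other route, had 79.8, 48.1, 1360.4 and 60.5, so EL4 was the lowest line at both genes. In the mouse annotation Tk1 overlaps Afmid and another gene on the opposite strand. The unshared pair CTPS1 and Ctps had 9.95 FPKM in TALL104 and 55.3 FPKM in EL4, and mouse Uhrf1 had 107.9 FPKM in EL4.

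Set against all 3 other lines, TALL104 was more than 2-fold lower at 88 of the 125 proliferative members, against 5.16% of all shared genes, and EL4 was more than 2-fold higher than all others at 1, against 3.82%. By list, TALL104 stood below the others at 39 of 43 mitosis, 28 of 39 replication, 12 of 23 nucleotide and 9 of 20 G1 and S members. Jurkat, which was read on the same human rows, had the highest proliferative sum of the 4 lines. Both human lines were more than 2-fold above both mouse lines at 11.7% of the shared genes, at 16 of the 65 cytotoxic and 3 of the 125 proliferative members. Both mouse lines were above both human lines at 4.75% of the genes, at 1 cytotoxic and 4 proliferative members. Between Jurkat and IVA12, the median log2 ratio was 0.74 for the cytotoxic and 0.50 for the proliferative members, Jurkat over IVA12. Of the 15489 shared genes, 4262 were more than 2-fold higher in Jurkat than in IVA12 and 2201 in IVA12 than in Jurkat. Of the 4206 genes higher in TALL104 than in EL4, 54.9% were also higher in Jurkat than in IVA12, or 54.2% of the 4262. Of the 2419 higher in EL4, 38.1% were also higher in IVA12, or 41.9% of 2201.

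Cell cycle inhibitors and quiescence genes were higher in TALL104 at 9 of 19 members and in EL4 at 3, against 27.2% and 15.6% of all shared genes. The median was 0.94, and 0.27 on the FPKM as deposited. RBL2, which encodes p130 of the DREAM complex, had 600.5 in TALL104, 36.97 in EL4, 84.6 in Jurkat and 21.4 in IVA12. YPEL3, a gene linked to growth arrest, had 156, 4.31, 0.231 and 22.7. CDKN2B, an inhibitor of CDK4 and CDK6, had 0.249, 45.5, 0 and 12.8. RBL2 was thus highest in TALL104, and CDKN2B was at or near 0 in both human lines. CDKN1B, which encodes the inhibitor p27 and is named here after its value was seen, had 287 in TALL104 and 53.1 in EL4.

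A list of ribosome biogenesis and MYC network genes was higher in EL4 at 8 of 19 members and in TALL104 at none, with a median of -0.94. MYC itself, named here after its value was seen, had 117 in TALL104, 187 in EL4, 494 in Jurkat and 692 in IVA12. The largest differences were at BOP1, a factor of large-subunit assembly, with 4.68 in TALL104, 200.1 in EL4, 19.5 in Jurkat and 346 in IVA12, at ODC1, of polyamine synthesis, with 143 and 888, and at RRP12, with 13.3 and 68.6. BOP1 was low in both human lines. It overlaps SCXA in the human annotation and Mroh1 and Scx in the mouse annotation, all on the opposite strand. The 20S proteasome, included as a set of genes that every cell uses, was higher in EL4 at 8 of 13 shared members, with a median of -1.28 and 4 members where both mouse lines were above both human lines. Over the members whose human and mouse lengths were within 1.5 times, the median was -0.32. PSMA2 had 7.88 in TALL104, 906 in EL4, 11.1 in Jurkat and 1166.3 in IVA12, and PSMA6 had 12.8, 690 and 48.6 with 597 in IVA12. PSMA1 had 54.6 and 448. In the human annotation each of these 3 overlaps another gene on the same strand, and how reads in such overlaps were counted is not given in the sources used here. The part of the overlaps in these ratios was not tested.

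Stress and p53 response genes were higher in TALL104 at 8 of 16 and in EL4 at 1, against 27.2% and 15.6% of all shared genes. The median was 0.96, and 0.29 on the FPKM as deposited. The heat shock genes HSPA1A and HSPA1B had 77.3 and 24.3 in TALL104 and 0 in EL4. They are near-identical copies, and in Jurkat they had 0.603 and 26.5, so the split between them is uncertain. PMAIP1, which encodes NOXA, had 29.0 in TALL104, 1.36 in EL4, 86.8 in Jurkat and 221 in IVA12.

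Markers of cells other than T cells were also read. Of 10 B cell markers, 7 were higher in TALL104 than in EL4 and 1 in EL4, against 27.2% and 15.6% of all shared genes. The 10 markers summed to 273 in TALL104, 9.46 in EL4, 348 in Jurkat and 7103 in IVA12. CD79A had 141 in TALL104, 0.538 in EL4, 84.4 in Jurkat and 0.193 in IVA12, BLK had 38.4 and 0, and MZB1 had 50.8 and 0.619. PAX5, which defines B cells and is named here after its value was seen, was listed at 0 in TALL104. Of other members named in the same way, CD79B and EBF1 had log2 ratios of 3.71 and 3.45, and CD22 had -2.60. The 11 myeloid markers summed to 18.7 in TALL104 and 10.6 in EL4, with ITGAM at 8.41 and 1.70 the 1 member called. CEBPA and S100A9 had 0.614 and 0.7001 in TALL104 and 0 in EL4. The erythroid list summed to 10.02 and 1.13, with EPOR at 9.71 and 0, ITGA2B at 0.182 and 0.555 and KLF1 at 0.127 and 0.438, and the stromal and epithelial list to 13.4 and 0.146, with KRT8, KRT18 and EPCAM at 4.40, 3.83 and 1.604 in TALL104 and 0 in EL4. The part of other cells in the cytotoxic values was not tested.

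Over all shared genes with a level of at least 50 in the higher line, the 8 largest ratios toward TALL104 were at KLRB1, NKG7, KIT, IFITM1, S100A11, PRF1, TC2N and SH2D1A, 4 of them cytotoxic list members. KIT, the stem cell factor receptor, had 1864 in TALL104, 0.0377 in EL4, 1.71 in Jurkat and 0 in IVA12. IFITM1, an interferon-induced membrane protein, had 1867, 0.307, 67.4 and 1.80. S100A11, a calcium-binding protein, had 1270.2, 0, 1.08 and 0, and TC2N had 1004, 0, 2.34 and 0. These 4 genes were far higher in TALL104 than in any of the other 3 lines.

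Toward EL4 the largest ratios were at genes that included THY1, EEF1G, CPA3, WIF1, PDCD1, S1PR5 and POU2AF1. PDCD1, which encodes the inhibitory receptor PD-1, had 0 in TALL104, 416 in EL4, 1.39 in Jurkat and 0.655 in IVA12. S1PR5, a receptor for sphingosine 1-phosphate, had 0, 366, 0.169 and 0.112. CPA3, a carboxypeptidase known from mast cells, had 0, 717, 1.11 and 0.185, and WIF1, a Wnt inhibitor, had 467 in EL4 and 0 in the other 3. These 4 were near 0 outside EL4. POU2AF1, a coactivator of octamer factors known from B cells, had 0.0817 in TALL104, 386 in EL4 and 2486 in IVA12. EEF1G, a translation elongation factor that every cell uses, was listed at 0 in both human lines, with 1888 in EL4 and 1515 in IVA12. In the human annotation it overlaps another gene on the same strand. The part of this overlap in the ratio was not tested.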

How the data were processed

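Bulk messenger RNA libraries (TruSeq stranded, 1 per line) were sequenced in pairs. Per the study's methods and the submitters' processing notes, the authors aligned reads with STAR 2.5.1b to the combined hg19 and mm10 reference of Cell Ranger 1.2.0 and counted them with featureCounts 1.6.3. The authors deposited the values as FPKM. Which lengths and strand setting were used, and what was done with reads that aligned more than once, is not given in the sources used here. The table had 0 columns outside the 4 libraries.

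Symbols came from GENCODE human release 44 (hg19 positions) and mouse release M21. Members were joined by symbol, rescaled to 1000000 over 15489 genes and compared as log2 ratios with a pseudocount of 1. A gene was called above 2-fold. Reads were solved from the FPKM: 100% of values above 0 were whole reads at a relative tolerance of 1e-12, and the sums were 98.3% of the total in TALL104 and 99.3% in EL4. Recovered and annotated lengths were equal for 22.2% of the human and for 73.0% of the mouse genes, and the reads of the others may lack a common factor. Intervals are exact Poisson (levels), Clopper-Pearson (folds) and delta-method errors (log2 ratios). Reads are not independent molecules. With 1 library per line no count model or test was used. Any member of a cytotoxic or proliferative list could be named. Of each other list the 3 members with the largest ratio were named, with 5 T cell markers, and over all genes the 8 largest each way at a level of at least 50. Some genes that this rule names are not reported here. The members and lists were chosen with earlier results of these data known. The calculation was tested on simulated data. Promoters came from RefSeq (GRCh38.p14). Python 3.11.15, NumPy 2.4.6, pandas 2.3.3, SciPy 1.17.1 and matplotlib 3.10.9 were used. The alternatives were pseudocounts of 0.1 and 5, a minimum of 1 in either line, 2 other scalings, leaving out 82 ribosomal protein genes, adding 12 mitochondrial genes, 8819 genes of like length, reads without division by length and a 4-fold threshold.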

Additional observations from a re-analysis of the deposited data

Results flagged for a closer look

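Reads were also present on the rows of the other species, which the comparison did not use. The shares here are of a library's reads on both sets of rows of the genes. On the mouse rows of the shared genes, the TALL104 library had 0.0400% (Wilson interval 0.0392% to 0.0408%), 9550 reads. On the human rows, the EL4 library had 0.0490% (0.0482% to 0.0499%), 14153 reads. There was no control library to set beside these shares. Over the 65 cytotoxic genes the shares were 0.00733% in TALL104 and 0.0858% in EL4, and over the 125 proliferative genes 0.142% and 0.0284%. No cytotoxic or proliferative gene reached 1 FPKM on a row of the other species, the highest being 0.139 FPKM.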

How the results depend on the processing

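With 1 library per line, replicates could not be left out. No paired analysis was possible because no line has a second library. The cytotoxic median of 3.23 was 4.93 and 2.65 with pseudocounts of 0.1 and 5, 2.91 after scaling by the median ratio, 2.10 on the FPKM as deposited, 2.94 with the mitochondrial genes and 2.82 as reads not divided by length. The proliferative median of -2.17 was -2.05 with a pseudocount of 5, -2.52 after median scaling, -2.70 as deposited, -2.35 without ribosomal protein genes, -2.45 with mitochondrial genes and -2.66 as reads not divided by length. The 4206 genes higher in TALL104 became 2345 as deposited, 2439 of 8819 with human and mouse lengths within 1.5 times and 2284 past 4-fold. The 2419 higher in EL4 became 1181 with like lengths and 1284 past 4-fold. The cytotoxic members higher in TALL104 ranged from 41 to 52 of 65, and 24 of 32 with like lengths. The proliferative members higher in EL4 ranged from 93 to 110 of 125, and 56 of 77 with like lengths. Of 248 named genes past 2-fold, 221 stayed so as deposited and 227 as reads not divided by length, where CD3D (-0.076) and LAMP2 (-0.14) reversed. Medians of the naive-type list (-0.09) and the T cell markers (-0.076) changed sign as reads not divided by length. Over the alternatives, list medians ranged from 5.47 to 8.33 for granule contents, 2.07 to 5.62 for NK-type receptors, 3.19 to 4.93 for effector ligands, 2.34 to 3.47 for effector transcription factors, -3.52 to -2.49 for mitosis, -1.64 to -0.92 for ribosome biogenesis and MYC and -1.92 to -0.32 for the proteasome. Under 3 reads in a library, a ratio is set by counting.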
